A study of Mus musculus with 11 samples.

Results

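The axon guidance ligand and receptor families are the semaphorins, plexins, neuropilins, ephrins, Eph receptors, netrins, UNC5 receptors, slits and Robo receptors. Their genes were taken by gene name from the count table, which gave 68 of 24849 genes. They were followed in AML12 cells, a line of hepatocytes from mouse liver, in 11 libraries of polyadenylated RNA. The 4 KO libraries come from cells whose genotype the labels call a knockdown of TXNDC5, a protein disulfide isomerase of the endoplasmic reticulum, and which the methods describe as a stable line made with a CRISPR/Cas9 plasmid and a repair template carrying puromycin resistance. The 4 KI libraries come from cells labelled as a TXNDC5 knockin, with the gene overexpressed from the ROSA26 safe harbour, and the 3 WT libraries from the parental cells. Among the WT libraries is a single library titled 5-6, and whether it is a pool is not stated. For the KO and WT cells the methods give 1 medium, with serum, insulin, transferrin, selenium and dexamethasone. Nothing in the labels says that replicates were separate cultures, so p-values measure the spread between these libraries, which may be technical. How many clones each edited line holds is not stated, so the edit and the line cannot be told apart.

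These families were named for steering axons, but most of their members also act in epithelia, blood vessels and liver. Semaphorins signal through plexins, and the secreted class 3 semaphorins mostly need a neuropilin as co-receptor. Ephrins stay on the cell surface and signal to Eph receptor tyrosine kinases on the neighbouring cell and back, netrins act through DCC, neogenin and UNC5 receptors, and slits act through Robo receptors.

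RefSeq start sites were matched by symbol for 59 of the 68 genes and 42 of those detected (GRCm38.p6). The 150 bases before the start are shown for 5 of the genes on which the results turn: *Nrp1*, *Robo1* and *Unc5b*, lowest in the KO cells, *Epha1*, highest in the KO cells, and *Sema4f*, highest in the KI cells. No exon of the GENCODE annotation overlaps these windows. They lie at chr8:128358923-128359072 and chr16:72662999-72663148 on the plus strand, and at chr10:60831582-60831731, chr6:42373269-42373418 and chr6:82939770-82939919 on the minus strand. The windows of *Nrp1* and *Robo1* lie inside the annotated gene, downstream of its outermost start. Capitals mark matches on either strand to GGGCGG (the GC box) or CCAAT (the CCAAT box); TATAAA (the TATA box), CACGTG (an E-box) and TGANTCA (an AP-1 site) were searched as well and have no match in these windows.
Nrp1: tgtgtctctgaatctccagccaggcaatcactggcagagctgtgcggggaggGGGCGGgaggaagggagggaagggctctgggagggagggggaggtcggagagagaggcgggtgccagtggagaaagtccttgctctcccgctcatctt
Robo1: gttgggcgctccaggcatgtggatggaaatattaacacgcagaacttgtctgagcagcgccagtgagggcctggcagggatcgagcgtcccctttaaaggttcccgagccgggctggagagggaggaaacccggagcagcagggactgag
Unc5b: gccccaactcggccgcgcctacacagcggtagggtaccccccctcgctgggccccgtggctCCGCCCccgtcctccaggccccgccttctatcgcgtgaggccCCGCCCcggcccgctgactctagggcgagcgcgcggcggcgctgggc
Epha1: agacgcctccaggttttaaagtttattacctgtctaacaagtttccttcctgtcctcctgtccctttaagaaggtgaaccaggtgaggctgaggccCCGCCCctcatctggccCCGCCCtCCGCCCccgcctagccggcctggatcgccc
Sema4f: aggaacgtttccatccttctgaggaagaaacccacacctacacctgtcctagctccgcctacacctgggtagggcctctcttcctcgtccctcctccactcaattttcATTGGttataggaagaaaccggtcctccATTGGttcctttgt

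*Epha1* had 3 GC boxes, *Unc5b* 2 and *Nrp1* 1, *Sema4f* had 2 CCAAT boxes, and *Robo1* had no match to the 5 motifs. Matches did not overlap each other. Over all 32851 windows of the same length, 28.6% held a GC box, 24.5% a CCAAT box, 7.57% a TATA box, 4.3% the E-box and 4.24% the AP-1 site. GC content was 78.7% in *Unc5b*, with 20 CpG, against 64% and 5 CpG in *Nrp1*, 60.7% and 8 in *Robo1*, 60% and 7 in *Epha1*, and 51.3% and 4 in *Sema4f*. The medians over all windows were 54% and 4 CpG. A match in such a window is a description of its letters and was not tested as a binding site.

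The targeted gene was checked first. *Txndc5* was counted 364, 287, 430 and 408 times in the KO cells, 3299, 3429 and 4046 times in the WT and 5654, 6511, 6723 and 5344 times in the KI cells. All KO libraries were below all others. The log2 fold change was -3.81 in KO against WT (SE 0.15, adjusted p = 4.09e-08, edgeR), and 0.24 in KI against WT (SE 0.13, adjusted p = 0.136, edgeR), so a higher level in the KI cells was not called. Total counts ran from 29840366 to 38422243 per library. A single table entry held 11.3% to 17.1% of each WT library and 4.32% to 9.12% of each other library. Levels were therefore scaled with TMM factors, of 0.744 to 0.947 for WT libraries and 1.02 to 1.13 for the rest. The hepatocyte markers differed between the lines. *Alb* (albumin) was at 3590 to 4770 CPM (counts scaled to a common library size) in the KO, 373 to 739 in the WT and 160 to 302 in the KI cells, and the summed level of the 7 hepatocyte markers in the table at 4300 to 5600, 1160 to 1880 and 799 to 1190 CPM. In the KO cells most of that sum was *Alb*. *Apoa1*, *Hnf4a* and *Ahsg* were also higher in the KO than in the WT libraries. *Ttr* went the other way between KO and WT, at 393 to 533 and 613 to 1040 CPM. So did *Serpina1a*, at 0.253 to 1.26 and 6.7 to 9.94 CPM, and *Fgb*, at 2.74 to 4.74 and 4.99 to 9.18. Among the cholangiocyte markers, *Krt7* was at 15.1 to 18.2 CPM in the KO, 166 to 188 in the WT and 107 to 131 in the KI cells, *Krt19* at 1040 to 1180, 653 to 862 and 565 to 817, and *Epcam* at 0 in every library. The 5 endothelial markers, among them *Cdh5*, *Pecam1* and *Tek*, had under 10 counts in every library. The summed level of 6 neuron markers was 1.35 to 2.09 CPM in the KO, 13.5 to 16.8 in the WT and 6.73 to 8.5 in the KI libraries. *Map2* was at 0 to 0.06 CPM in the KO, 9.72 to 10.3 in the WT and 0.992 to 1.67 in the KI libraries. *Syt1*, most of the sum in the KO and KI libraries, was at 1.21 to 1.68, 3.19 to 6.27 and 4.69 to 6.64. *Rbfox3*, *Tubb3* and *Stmn2* had at most 15 counts. The 5 macrophage markers summed to 1.95 to 2.69, 6.73 to 9.56 and 3.24 to 6.66 CPM, with *Adgre1* at 0 in every library. Their part in the results was not tested.

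Of the 68 genes, 48 reached 10 counts in at least 1 library and 20 did not. The detected genes were 14 of 20 semaphorins, 7 of 9 plexins, both neuropilins, all 8 ephrins, 7 of 14 Eph receptors, 3 of 4 netrins, 2 of 4 UNC5 receptors, 2 of 3 slits and 3 of 4 Robo receptors. Ephrins were thus detected throughout, whereas the receptors *Epha3*, *Epha10*, *Ephb1* and *Ephb3*, the plexin *Plxnc1*, *Sema5b*, *Sema6a*, *Robo4* and *Unc5d* had no count in any library. A count of 0 allows up to 3 counts, or 0.069 to 0.134 CPM depending on the library, for counting error only. The remaining genes under the limit were *Sema3d*, *Sema3g*, *Sema5a*, *Sema7a*, *Plxna4*, *Epha6*, *Epha8*, *Ephb2*, *Ntn5*, *Slit3* and *Unc5a*. All 68 genes together held 0.0935% to 0.197% of the counts of a library.

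**Figure D1:**
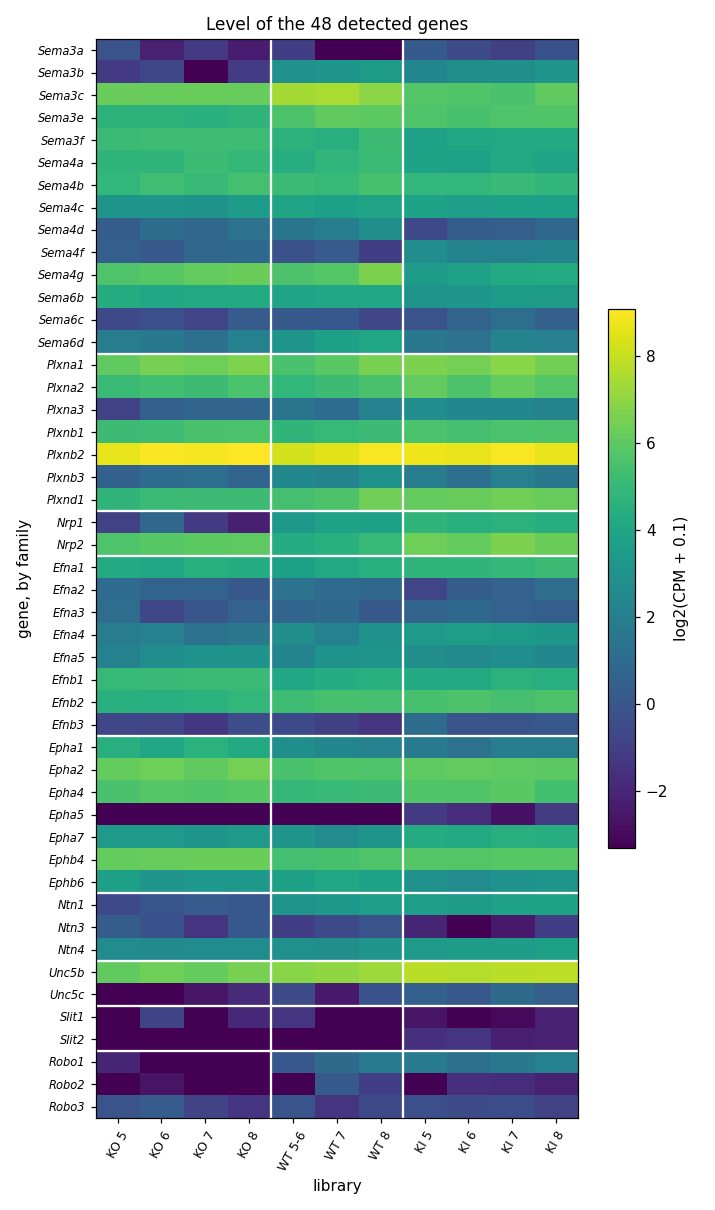
Level of the 48 detected genes (rows, grouped by family) in each of the 11 libraries (columns), as log2(CPM + 0.1). *Plxnb2* is the brightest row in all libraries, and *Nrp1*, *Ntn1*, *Sema3b* and *Robo1* are dark in the 4 KO columns.

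Per length of exon, *Plxnb2*, a plexin that serves as receptor of class 4 semaphorins, stood highest in every line, with 62.3 ± 7.95 CPM per kb in the KO (SD, n = 4), 50.6 ± 13.1 in the WT (SD, n = 3) and 56.3 ± 5.16 in the KI cells (SD, n = 4). It made up 64.3% to 75.1% of the plexin level per length in all libraries. Next in the WT cells were *Sema3c*, a secreted semaphorin, at 22.2 ± 4.77 CPM per kb, and *Unc5b*, a netrin receptor, at 21.4 ± 2.63, which lay within each other's spread. *Epha2* (10.6 ± 0.781), *Ephb4* (9.89 ± 1.08) and *Efna1* (9.74 ± 2.59) followed and did not differ beyond their spread either. In the KI cells the second place belonged to *Unc5b* with 35.2 ± 1.68 CPM per kb, and in the KO cells *Epha2* (16.5 ± 2.18) and *Ephb4* (16.3 ± 0.755) stood above *Unc5b* (12.3 ± 1.77). Robo and slit genes were at the low end: the summed level of the Robo family was 0.0403 to 0.331 CPM per kb. In bulk RNA such as this, fewer cells of a type and less RNA per cell cannot be told apart.

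**Figure D2:**
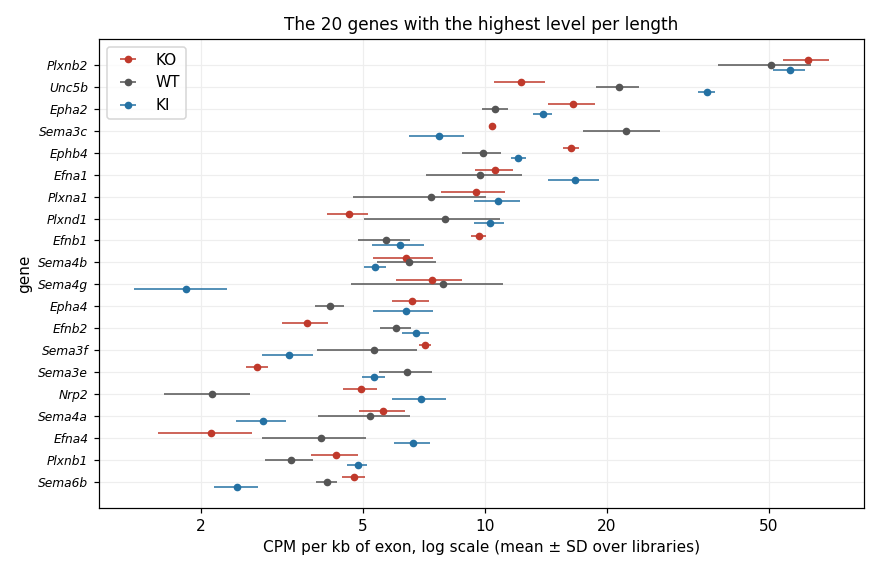
Mean level per length of exon with SD over the libraries of each line (KO red, WT grey, KI blue), on a log axis, for the 20 genes with the highest mean. *Plxnb2* leads in every line, and *Unc5b*, *Nrp2* and *Sema4g* have lines that lie apart.

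Between the KO and WT cells, genes of these families differed in both directions, with more called lower than higher. Of 42 genes with enough counts to be tested, 6 rose and 16 fell in the KO cells (edgeR's quasi-likelihood test, adjusted p under 0.05), which is 52.4% called. Over all 13359 genes tested, 26.7% rose and 28.4% fell, so 55.1% were called, and the share among these families is near that background. The libraries of both groups did not overlap for 23 of the 42, against 55.3% of all genes. The median log2 fold change of the 42 was -0.10, and that of all genes -0.03. Scaling by library totals in place of TMM shifted the median of all genes from -0.03 to 0.38, raised the share of higher among all calls from 48.5% to 72.8%, and gave 13 higher and 8 lower among the 42, so that higher and lower are meant against the typical gene. The 8 calls lost with library totals were those of *Efna4*, *Efnb2*, *Ephb6*, *Plxna3*, *Plxnd1*, *Sema4c*, *Sema4d* and *Unc5b*. Without the WT library 8, 10 were called higher.

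With all libraries, more of these genes were called higher than lower in the KI cells. Of 44 tested, 14 rose and 10 fell against WT, or 54.5%. The background was 21.2% higher and 21.0% lower, 42.3% in either direction, of 13534 genes. No overlap was seen for 28 of the 44, against 44.7% of all genes, and the medians were 0.23 and -0.02. With library totals the median of all genes moved to 0.30, the share of higher calls from 50.2% to 76.3%, and 20 of the 44 were higher and 5 lower. The 5 calls lost were those of *Epha1*, *Plxnb3*, *Sema3f*, *Sema4a* and *Sema6b*. Without the WT library 7, 9 were called higher and 10 lower, so the excess of higher calls was not kept. Both comparisons use the same 3 WT libraries.

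Set directly against each other, the edited lines differed in most of these genes. Of 44 tested in KO against KI, 11 were higher in the KO cells and 20 lower, which is 70.5% called, where 27.0% of all 13269 genes were higher and 27.0% lower (54.0% in all). The libraries did not overlap for 29 of the 44, against 48.6% of all genes. The medians were -0.38 over the families and 0.00 over all genes. This comparison holds no WT library and tests whether the differences from WT differ between the lines.

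**Figure D3:**
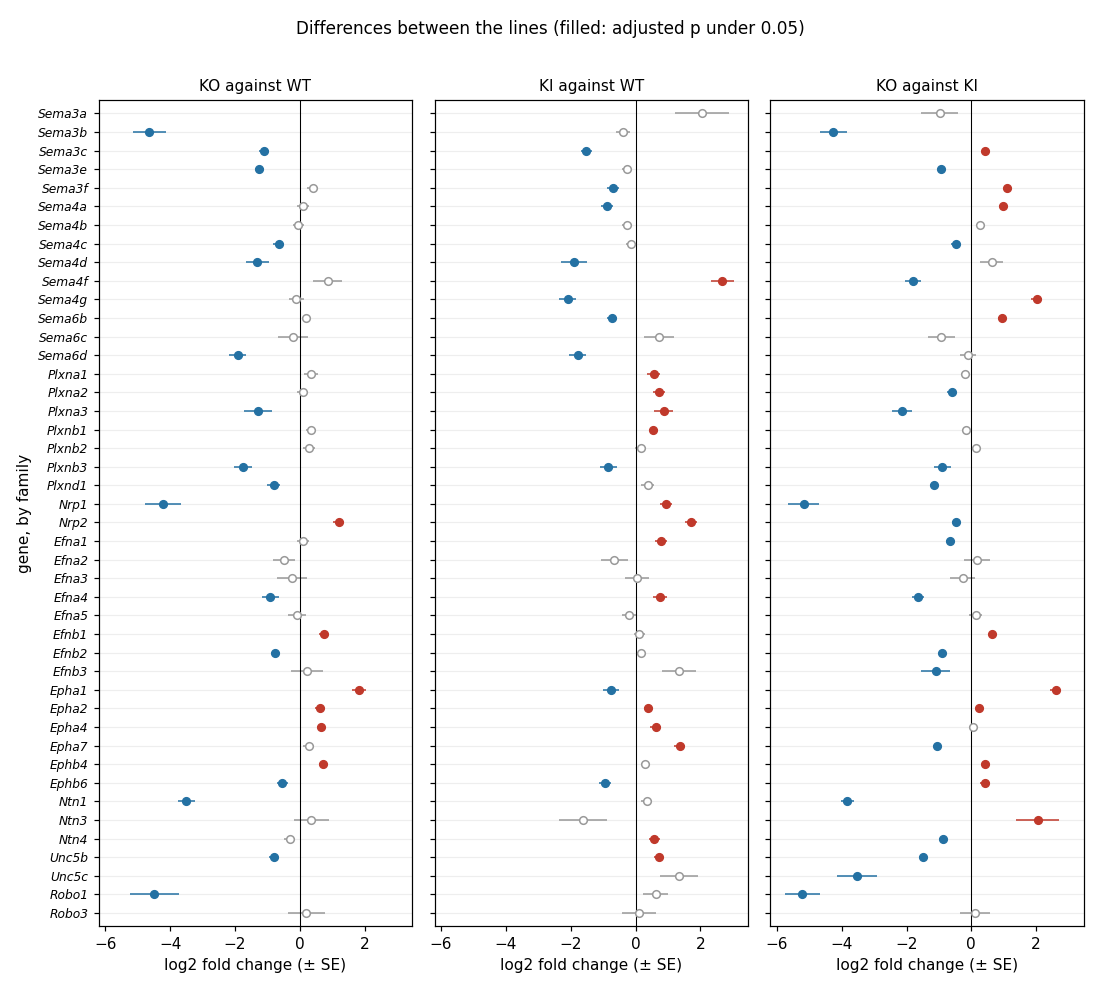
Log2 fold change with its standard error for each tested gene, in KO against WT, KI against WT and KO against KI. Filled points were called (adjusted p under 0.05, red higher and blue lower) and open grey points were not; *Nrp1*, *Ntn1*, *Sema3b* and *Robo1* lie below -3 in both comparisons of the KO cells.

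The neuropilins, co-receptors of class 3 semaphorins and of vascular endothelial growth factor, separated the lines. *Nrp1* was at 0.449, 1.63, 0.33 and 0.115 CPM in the KO cells, 9.67, 14.3 and 13 in the WT and 26.7, 22.6, 25.2 and 20.8 in the KI libraries. No library of one line reached the range of another, in the order KO, WT, KI. Its log2 fold change was -4.21 in KO against WT (SE 0.55, adjusted p = 9.84e-05, edgeR), an 18.5-fold lower level, and 0.94 in KI against WT (SE 0.18, adjusted p = 0.0011, edgeR). *Nrp2*, its paralog, was at 51, 58.4, 61.4 and 64.1 CPM in the KO, 20.2, 23.6 and 31.9 in the WT and 81.7, 70.2, 99.7 and 78.6 in the KI libraries, so that both edited lines were above the WT in every library. It rose by 1.19 in the KO (SE 0.17, adjusted p = 0.000153, edgeR) and by 1.70 in the KI cells (SE 0.18, adjusted p = 2.04e-05, edgeR) on the log2 scale. Per length, *Nrp1* made up 33.1% to 42.3% of the neuropilin level in the WT, 23.4% to 28.4% in the KI and 0.217% to 3.27% in the KO libraries. Without the KO library 6, the highest of the KO libraries, *Nrp1* was at -5.15 in KO against WT and -6.12 in KO against KI. With all libraries, KO against KI gave -5.17 for *Nrp1* (adjusted p = 9.98e-06, edgeR) and -0.49 for *Nrp2* (adjusted p = 0.00198, edgeR).

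Among the class 3 semaphorins, the secreted ligands, 3 of 4 tested fell in the KO cells and none rose, where 28.4% of all genes fell; the difference was not tested. *Sema3b*, a ligand of the neuropilins, was at 0.336, 0.533, 0 and 0.368 CPM in the KO, 7.62, 9.12 and 10.8 in the WT and 5.15, 6.89, 7.08 and 8.76 in the KI libraries. The KO libraries lay apart from the others, while the WT and KI libraries overlapped. It fell by 4.64 on the log2 scale in the KO cells (SE 0.50, adjusted p = 2.53e-05, edgeR), and KI against WT was not called at -0.40 (adjusted p = 0.145, edgeR). *Sema3c* was lower in both edited lines, with 75.5, 74.1, 74.8 and 72.3 CPM in the KO and 54.6, 52.6, 46.3 and 66.8 in the KI libraries against 171, 184 and 120 in the WT. Its log2 fold changes were -1.11 (SE 0.15, adjusted p = 0.000113, edgeR) and -1.53 (SE 0.17, adjusted p = 3.05e-05, edgeR). The groups did not overlap in either comparison. *Sema3e*, a ligand that binds plexin D1 without a neuropilin, was at 23.3 to 27 CPM in the KO, 49.8 to 67 in the WT and 45 to 52.2 in the KI libraries, and fell by 1.25 in the KO cells (SE 0.14, adjusted p = 3.12e-05, edgeR). *Sema3f*, a ligand of neuropilin 2, was lower in the KI cells (13.7 to 19 CPM) than in the WT (22 to 36.4), with a log2 fold change of -0.69 (SE 0.19, adjusted p = 0.0101, edgeR), and was 2.16-fold higher in the KO than in the KI cells. *Sema3a* had 0 to 38 counts per library and was not called in either comparison that tested it.

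The semaphorins of classes 4 and 6 are bound to the membrane, and in KI against WT 1 of them rose and 5 fell among 9 tested, where 21.2% of all genes rose and 21.0% fell; the difference from all genes was not tested. *Sema4f* rose to 6.69, 4.55, 4.23 and 4.74 CPM in the KI libraries, from 0.758, 1.09 and 0.389 in the WT, with 1.23, 1.01, 1.62 and 1.79 in the KO. All KI libraries were above all others, and the log2 fold change against WT was 2.67 (SE 0.35, adjusted p = 9.08e-05, edgeR), or 6.35-fold. The table lists this gene in 2 entries, whose counts were summed; the KI library 5 had 2 and 237 counts in them and the other KI libraries 63 to 72 and 93 to 98. *Sema4g* fell in the KI cells to 11.4, 13.5, 19.1 and 19.7 CPM, from 48.6, 56.1 and 100 in the WT, with 50.9, 58.8, 68.6 and 78.4 in the KO. The KI libraries were apart from both other lines, whose ranges overlapped, and the log2 fold change against WT was -2.10 (SE 0.25, adjusted p = 4.63e-05, edgeR). The WT library 8 was the highest of all for this gene.

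*Sema6d*, a ligand of plexin A1, was lower in both edited lines, with 3.56, 3.11, 2.25 and 4.21 CPM in the KO and 2.99, 2.43, 4.57 and 4.17 in the KI libraries against 8.43, 12.7 and 16 in the WT. The log2 fold changes were -1.91 (SE 0.26, adjusted p = 0.000124, edgeR) and -1.79 (SE 0.26, adjusted p = 0.000199, edgeR), and KO against KI was not called at -0.10 (SE 0.25). *Sema4d*, which binds plexin B1, was at 2.72, 3.55 and 7.08 CPM in the WT, 1.18, 1.98, 1.62 and 2.35 in the KO and 0.559, 1.16, 1.23 and 1.64 in the KI libraries. It was called lower in the KO cells at -1.31 (adjusted p = 0.00949, edgeR) and in the KI cells at -1.91 (adjusted p = 0.00212, edgeR), and the KO call was lost without the WT library 8, at -0.78. *Sema4a* (-0.87) and *Sema6b* (-0.73) fell in the KI cells and were not called in KO against WT, and both were higher in the KO than in the KI cells, 1.98-fold and 1.93-fold. *Sema4c* fell in the KO cells, at -0.65 (adjusted p = 0.00679, edgeR). *Sema4b* was called in no comparison, with 28.6 to 43.6 CPM over all libraries.

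Of 7 plexins tested, the receptors of semaphorins, 3 were called lower and none higher in the KO cells, and 4 higher and 1 lower in the KI cells. Over all genes, 28.4% were lower in the KO, and 21.2% higher and 21.0% lower in the KI cells, and the difference of the plexins from these shares was not tested. *Plxna3*, a partner of neuropilins, was at 0.449, 1.3, 1.53 and 1.54 CPM in the KO, 2.59, 1.94 and 4.5 in the WT and 6.77, 5.29, 5.46 and 4.65 in the KI libraries. The lines were ordered KO, WT, KI without overlap, with log2 fold changes of -1.29 (SE 0.43, adjusted p = 0.0258, edgeR) and 0.87 (SE 0.29, adjusted p = 0.0268, edgeR). Without the WT library 8 the KO call was lost, at -0.86, and without the WT library 7 or 5-6, or the KI library 5, the KI call was lost. *Plxnb3* had log2 fold changes of -1.76 in the KO (SE 0.27, adjusted p = 0.000285, edgeR) and -0.84 in the KI cells (SE 0.27, adjusted p = 0.0232, edgeR), the latter lost without the WT library 8 or the KI library 6 or 8. *Plxnd1*, the receptor of *Sema3e*, fell in the KO cells from 42.7, 49.3 and 82.6 CPM to 28.1, 34.6, 36.6 and 35.6, a log2 fold change of -0.81 (adjusted p = 0.00655, edgeR), and was at 69.1 to 84.3 in the KI libraries. Its KO against WT value was -0.44 without the WT library 8, where the call was kept. With library totals the value was -0.43 and was not called. *Plxna2* rose in the KI cells by 0.72 (SE 0.18, adjusted p = 0.00684, edgeR), and *Plxna1* and *Plxnb1* by 0.55 and 0.54, of which the call of *Plxna1* was lost without the WT library 5-6 or 7 or the KI library 5, 6 or 7. *Plxnb2*, at 303, 368 and 501 CPM in the WT libraries, had log2 fold changes of 0.28 (adjusted p = 0.212, edgeR) in the KO and 0.15 (adjusted p = 0.509, edgeR) in the KI cells. The WT library 8 held the highest WT value for all 7 detected plexins.

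**Figure D4:**
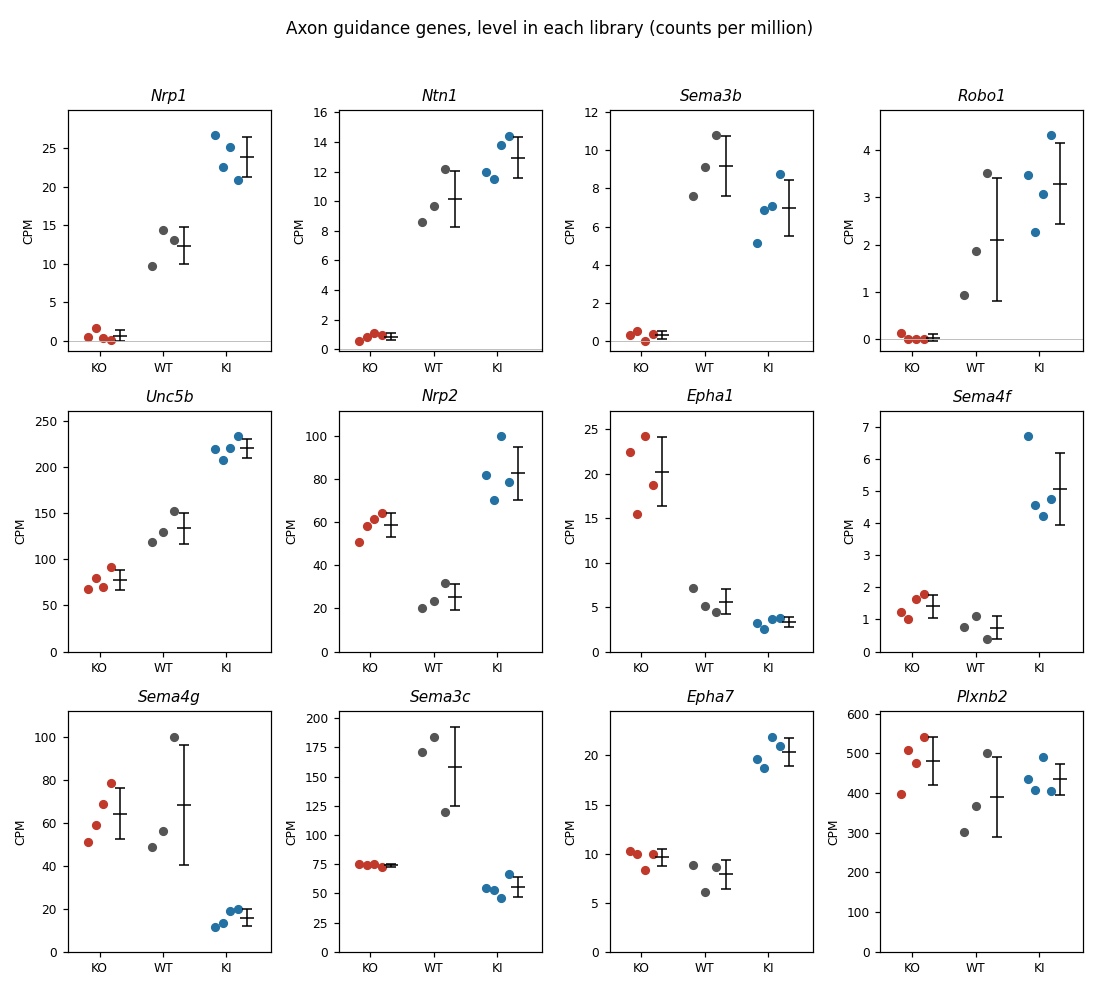
Level in CPM of 12 genes in each library (points, KO red, WT grey, KI blue), with the mean and SD of each line in black. *Nrp1* and *Unc5b* step up from KO to WT to KI, *Epha1* steps down, and *Ntn1*, *Sema3b* and *Robo1* are low in the KO libraries only.

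In the netrin system, the ligand *Ntn1* (netrin 1) and the receptor *Unc5b* were both lower in the KO cells. *Ntn1* was at 0.561, 0.829, 1.08 and 0.943 CPM in the KO, 8.56, 9.64 and 12.2 in the WT and 12, 11.5, 13.8 and 14.4 in the KI libraries. The KO libraries were far below the others, whose ranges overlapped. The log2 fold change was -3.50 in KO against WT (SE 0.25, adjusted p = 1.81e-06, edgeR), an 11.3-fold lower level, and 0.34 in KI against WT (adjusted p = 0.133, edgeR), which was not called. *Unc5b* was at 67.4, 79.9, 70 and 91.7 CPM in the KO, 119, 130 and 152 in the WT and 219, 207, 221 and 233 in the KI libraries. The lines did not overlap, and the log2 fold changes were -0.81 (SE 0.14, adjusted p = 0.000657, edgeR) and 0.72 (SE 0.14, adjusted p = 0.00118, edgeR), with KO against KI at -1.51 (SE 0.10, adjusted p = 1.07e-08, edgeR). Scaled by library totals, KO against WT was -0.41 and was not called. *Unc5c*, a second UNC5 receptor, had 0, 0, 2 and 8 counts in the KO, 14, 2 and 22 in the WT and 47, 34, 71 and 41 in the KI libraries, and was called in KO against KI, at -3.53 (SE 0.61, adjusted p = 0.000178, edgeR), and at -4.19 without the KO library 8. *Ntn4*, a netrin of basement membranes, rose in the KI cells by 0.58 (adjusted p = 0.0155, edgeR), with 10 to 13 CPM against 6.82 to 8.67 in the WT, a call lost without the WT library 7. *Ntn3* was called in KO against KI (2.05, adjusted p = 0.0159, edgeR) with at most 42 counts in a library, and was at 2.73 without the KI library 8. Its KO and KI ranges overlapped, at 0.27 to 1.15 and 0 to 0.395 CPM. *Dcc*, the receptor that gives netrin attraction, had at most 4 counts in any library.

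Of the Robo receptors and their slit ligands, *Robo1* had 5, 0, 0 and 0 counts in the KO cells, 21, 46 and 99 in the WT and 124, 82, 118 and 142 in the KI libraries. It reached 10 counts in every WT and KI library and in no KO library. The log2 fold change was -4.49 in KO against WT (SE 0.75, adjusted p = 0.000485, edgeR), a value that depends on the prior count because 3 KO libraries were at 0, and 0.62 in KI against WT (adjusted p = 0.219, edgeR). Without the KO library 5, the one with counts, KO against WT was -5.09, and KO against KI moved from -5.21 to -5.92. *Robo3* was tested and not called, at 0.276 to 1.1 CPM, and *Robo2* had too few counts for the test, with 0 to 26 per library. The ligands *Slit1* and *Slit2* had at most 16 and 10 counts, and *Slit2* was seen in the KI libraries alone, with 8, 10, 4 and 4 counts.

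Among the 8 ephrins tested, ligands bound to the membrane, no called gene passed a log2 fold change of 1 in either direction against WT. Over all genes, 25.4% did so in KO against WT and 16.3% in KI against WT, and the difference was not tested. *Efnb3* was at 1.33 in KI against WT, without overlap, and was not called (adjusted p = 0.0558, edgeR). *Efnb1* rose in the KO cells to 31.9, 32.5, 34.5 and 34.6 CPM, from 16.6, 20.1 and 22.3 in the WT, without overlap, by 0.74 on the log2 scale (SE 0.14, adjusted p = 0.00102, edgeR), and was at 18.3 to 25.1 in the KI libraries. *Efnb2*, the ligand of EphB4, fell in the KO cells to 23, 22.8, 24.2 and 29.7 CPM, from 37.4, 44.5 and 42.4, a log2 fold change of -0.75 (adjusted p = 0.000981, edgeR), with 42.9 to 49.7 in the KI libraries. The ephrin B genes thus differed in opposite directions in the KO cells; with library totals *Efnb1* stayed called at 1.14, and *Efnb2* was not called at -0.34. *Efna1*, a ligand of EphA2, was higher in the KI cells, at 27.2, 27.6, 31.1 and 36.6 CPM against 13.2, 17.7 and 22.6 in the WT, by 0.77 (SE 0.19, adjusted p = 0.00614, edgeR). *Efna4* was at 2.46 to 4.44 CPM in the KO, 4.32 to 7.86 in the WT and 9.43 to 12 in the KI libraries. The KO and WT ranges of *Efna4* overlapped, with a call of -0.91 (adjusted p = 0.014, edgeR) that was lost without the WT library 8, and it rose in the KI cells by 0.75 (SE 0.21, adjusted p = 0.0126, edgeR), a call lost without the WT library 7. *Efna2*, *Efna3* and *Efna5* were called in no comparison.

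Of 6 Eph receptors tested, 4 were called higher and 1 lower in the KO cells, where 26.7% of all genes rose and 28.4% fell. The genes are few, and the difference from all genes was not tested. *Epha1* was at 22.5, 15.5, 24.2 and 18.7 CPM in the KO, 7.18, 5.12 and 4.46 in the WT and 3.24, 2.48, 3.69 and 3.74 in the KI libraries. This order, KO above WT above KI without overlap, is the reverse of that of *Nrp1* and *Unc5b*. The log2 fold changes were 1.83 (SE 0.22, adjusted p = 4.84e-05, edgeR) in the KO and -0.75 (SE 0.25, adjusted p = 0.0258, edgeR) in the KI cells, and 2.60 in KO against KI (SE 0.18, adjusted p = 9.96e-09, edgeR). The KI call was lost without the WT library 5-6 or the KI library 5 or 6, with values of -0.89 to -0.53 over all libraries left out. *Epha2*, an abundant epithelial receptor, rose in the KO cells from 45.3, 52.2 and 51 CPM to 70.7, 82.2, 66.3 and 88.4, by 0.62 (SE 0.14, adjusted p = 0.00288, edgeR), and in the KI cells by 0.39, a call lost without the WT library 5-6 or 7 or the KI library 5, 6 or 7. *Epha4* rose in both, by 0.65 in the KO (SE 0.13, adjusted p = 0.00182, edgeR) and 0.62 in the KI cells (SE 0.16, adjusted p = 0.0079, edgeR). *Ephb4* rose in the KO cells by 0.70 (SE 0.12, adjusted p = 0.000546, edgeR), to 71.4 to 79.2 CPM from 41.8 to 51.5, and was not called in the KI cells. *Epha7* stood out in the KI cells, at 19.6, 18.7, 21.9 and 21 CPM against 8.83, 6.13 and 8.67 in the WT and 8.34 to 10.3 in the KO, a rise of 1.36 (SE 0.17, adjusted p = 6.24e-05, edgeR). *Ephb6*, a receptor without kinase activity, fell in both lines, at -0.54 in the KO and -0.95 in the KI cells, and the KO call was lost without the KO library 6, 7 or 8 or the WT library 7. *Epha5* had 12, 7, 2 and 12 counts in the KI libraries and 0 in all others, too few for the test.

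A list of 38 further receptors, co-receptors and ligands held 22 tested genes, of which 5 rose and 6 fell in the KO cells, 4 rose and 6 fell in the KI cells, and 5 were higher and 9 lower in KO against KI, or 50%, 45.5% and 63.6% called. Of 56 mediators inside the cell, 13 rose and 15 fell of 50 tested in the KO, and 9 rose and 7 fell of 49 in the KI cells, while KO against KI gave 15 higher and 14 lower of 49, or 56.0%, 32.7% and 59.2%. Over all genes these shares were 55.1%, 42.3% and 54.0%, and no test set either list against them. Median log2 fold changes of both lists against WT lay between -0.10 and 0.05. The genes named next were chosen after their values were seen.

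*Flt1*, a receptor of vascular endothelial growth factor that shares neuropilin 1 as partner, had 0, 2, 0 and 0 counts in the KO cells, 737, 917 and 1284 in the WT and 846, 700, 1016 and 661 in the KI libraries. From the summed counts it was 2847-fold lower in the KO than in the WT libraries, with a 95% exact binomial interval of 788 to 23524 that covers counting error only. *Enah* and *Evl*, actin regulators of the Ena/VASP family that act downstream of netrin and Robo receptors, had at most 16 and 6 counts in a KO library. *Enah* was at 44.2, 52.6 and 46.7 CPM in the WT and 16.8 to 18.9 in the KI libraries, and *Evl* at 8.87, 10.2 and 12.7 in the WT and 20.8 to 25.1 in the KI libraries. In KO against WT their log2 fold changes were -7.17 (adjusted p = 2.13e-08, edgeR) and -6.69 (adjusted p = 2.63e-06, edgeR), and *Evl* was at -7.38 without the KO library 5. Against WT the KI cells had less *Enah* (-1.43) and more *Evl* (1.06). *Vasp*, of the same family and at a higher level, went the other way in the KO cells. Its mean was 155 CPM in the KO and 83.8 in the WT libraries, without overlap (log2 fold change 0.86, adjusted p = 0.000671, edgeR). *Mical1*, an oxidase that acts on actin below plexins, fell in the KO cells, with a log2 fold change of -2.76 (SE 0.62, adjusted p = 0.00307, edgeR). Its mean was 0.36 CPM in the KO and 2.79 in the WT libraries. Its paralog *Mical2* rose, from a mean of 22.6 CPM in the WT to 74 in the KO (log2 fold change 1.69, adjusted p = 6.18e-05, edgeR). *Mical3* was not called, at means of 20.2 and 20.8 CPM. *Timd2*, named as a receptor of *Sema4a*, was at 0 in every KO library, against 38, 48 and 40 counts in the WT, at least 81.4-fold lower with a floor of 3 counts over the group.

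*Dpysl3*, a collapsin response mediator protein, was at 91.7, 81.5, 113 and 73.2 CPM in the KI, 13.2, 10.5 and 14.2 in the WT and 5.72 to 9.18 in the KO libraries, a rise of 2.82 in the KI cells (SE 0.19, adjusted p = 5.2e-07, edgeR). *Sdc3*, a heparan sulfate proteoglycan, differed in opposite directions, at 9.18 to 12.2 CPM in the KO, 1.69 to 4.11 in the WT and 0.221 to 0.28 in the KI libraries. *Neo1* (neogenin), a receptor of netrins and of repulsive guidance molecules, rose in both edited lines, by 0.96 in the KO (SE 0.19, adjusted p = 0.00126, edgeR) and 1.30 in the KI cells (SE 0.18, adjusted p = 0.000156, edgeR). Its ligand *Rgma* had 31 to 96 counts in the KO, 27 to 49 in the KI and 2, 0 and 0 in the WT libraries. *Flrt2*, a ligand of UNC5 receptors, rose in the KO cells by 2.83 and in the KI cells by 1.46, from 0.282 to 1.27 CPM in the WT. *Flrt3*, of the same family and at a higher level, fell in the KO cells from a mean of 28.6 to 13.5 CPM. The log2 fold change was -1.10 (adjusted p = 6.53e-05, edgeR), and KI against WT was not called. *Flrt1*, at a mean of 0.874 CPM in the WT, was called lower in the KI cells (-2.07, adjusted p = 0.0334, edgeR). That call was lost without the WT library 5-6 or 8 or the KI library 8.

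**Figure D5:**
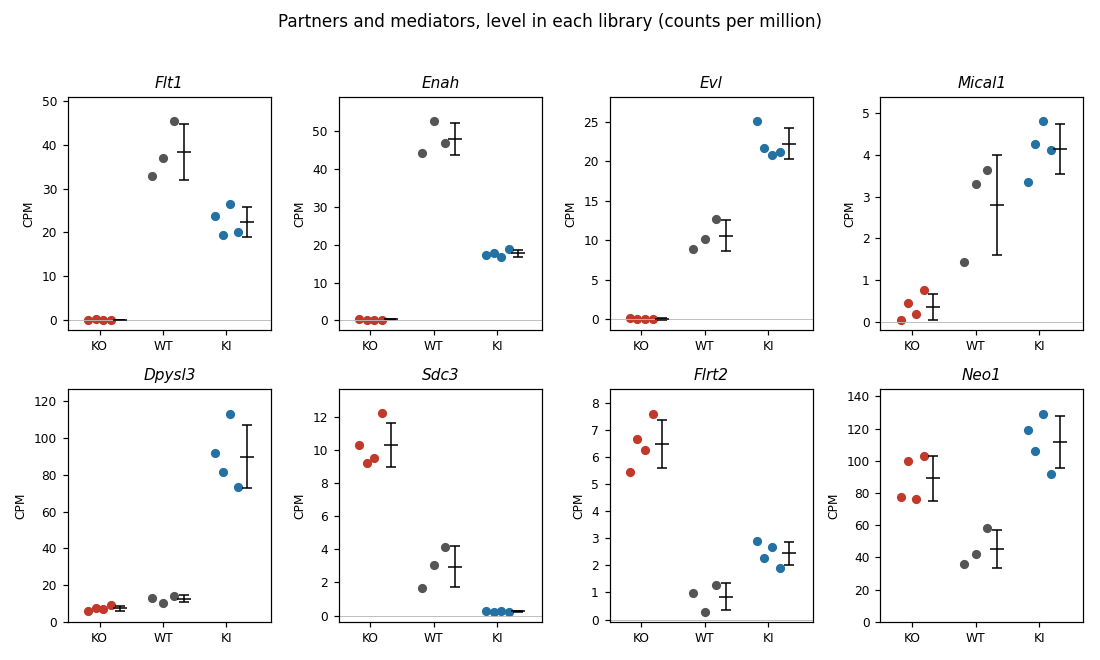
Level in CPM of 8 partners and mediators in each library (points, KO red, WT grey, KI blue), with the mean and SD of each line in black. *Flt1*, *Enah* and *Evl* lie at or near 0 in the KO libraries, and *Dpysl3* is highest in the KI libraries.

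All 68 genes were placed on GRCm38 by the GENCODE annotation. Chromosomes differed in their median over all genes. In KO against WT, the median log2 fold change was 0.49 on chromosome 16, where *Robo1* lies (72308306 to 73046095, plus strand), -0.34 on chromosome 11, with *Ntn1* (68209364 to 68400823, minus strand), -0.06 on chromosome 8, with *Nrp1* (128358604 to 128503363, plus strand), and 0.09 on chromosome 6, with *Epha1* (42358487 to 42373268, minus strand) and *Sema4f* (82911885 to 82939769, minus strand). *Robo1* fell on a chromosome whose genes were on balance higher. *Unc5b* is on chromosome 10 (60762593 to 60831581, minus strand), where the median was 0.05. The chromosomes of *Sema3b* (9) and *Sema6d* (2) had medians of -0.04 and 0.27. In KI against WT the medians were -0.06 on chromosome 6, 0.13 on chromosome 10 and -0.20 on chromosome 19, with *Sema4g*. The part of the chromosome in these differences was not tested.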

How the data were processed

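Polyadenylated RNA of 4 KO, 3 WT and 4 KI libraries of AML12 cells was sequenced. The counts are raw reads per gene, deposited by the authors without normalization; HISAT2, TopHat2, Bowtie2 and StringTie stand in the submitters' processing notes, with no role or version, and the genome build is not given in the sources used here. Of 26472 lines, 10 with broken fields were left out, and counts of entries with the same name were summed to 24849 genes. FPKM columns without their decimal points and the fold changes and p-values of the authors' DESeq2 comparisons were not used.

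Genes of the families were found by name (68, in 69 entries), and 48 with at least 10 counts in any library were taken as detected. Each pair of lines was fitted alone in R 4.3.3 with edgeR 4.0.16: low-count filter, TMM scaling, robust quasi-likelihood test, prior count 2, Benjamini-Hochberg adjustment over all tested genes, calls at an adjusted p under 0.05. The standard error is the log2 fold change divided by the root of the F statistic. CPM uses the TMM-scaled library size, and levels per kb use the GENCODE M21 exon union on GRCm38. Alternatives were library totals, DESeq2 1.42.0, no filter, all lines in one fit, a replicate block and leaving out each library. Plots used Python 3.11.15 and matplotlib 3.10.9. Reads were taken as unstranded, so overlapping antisense genes cannot be told apart.

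Members, lists and tests were chosen with earlier results of these data known. Genes with at least 10 counts could be named; full statistics went to called genes without overlap, at most 10 higher and 10 lower per comparison by size of change, and to the 5 with the most counts. Partners were named after their values were seen. Library totals were 29840366 to 38422243, and no pair of libraries of a line agreed within counting noise (chi-square per degree of freedom of at least 16.5).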

Additional observations from a re-analysis of the deposited data

Results flagged for a closer look

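Single libraries stood far from the others of their line in 5 of 94 groups of 4 libraries looked at, where chance alone gives about 4.7 by Dixon's criterion at 1 in 20. The value in parentheses is the distance from the next library as a share of the whole range. *Efnb3* in the KI library 5 was at 1.99 CPM, the other KI libraries at 0.827 to 0.943 (0.9). *Robo1* in the KO library 5 was at 0.14 CPM and 0 in the rest (1), and *Robo2* in the KO library 6 at 0.0592 and 0 in the rest (1), both from at most 5 counts. *Sema4c* was at 11.6 CPM in the KO library 8, against 8.31 to 8.68 (0.89), and at 14.6 in the KI library 5, against 12.4 to 12.7 (0.84).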

How the results depend on the processing

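No called gene of the families changed sign in the alternatives run. The calls were lost in 17 of 264 refits of called genes in KO against WT, 44 of 288 in KI against WT and 23 of 403 in KO against KI, and 14 of 22, 7 of 24 and 28 of 31 called genes kept theirs in every alternative. These alternatives include the replicate block, which against WT compares the lines only within the numbers 7 and 8. Library totals in place of TMM gave 13 higher and 8 lower in KO against WT (6 and 16 with TMM) and 5 lower in KI against WT (10 with TMM). Leaving out each library in turn gave 6 to 10 higher and 13 to 17 lower in KO against WT, 9 to 20 higher and 8 to 10 lower in KI against WT, and 9 to 11 higher and 19 to 20 lower in KO against KI. The highest count of higher calls in KO against WT came without the WT library 8 and the lowest of higher calls in KI against WT without the WT library 7, and the cause was not tested. Partners and mediators called were 31 to 48, 20 to 31 and 37 to 47 in the same order. DESeq2, no filter on low counts and all lines in one fit kept every one of these counts within 1.5 times.

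With the replicate number as a block, KI against WT gave 4 higher and 4 lower genes of the families (14 and 10 without the block). Partners and mediators called there were 9 (26 without the block). The library WT 5-6 carries a number that no other library has, so it stands alone in its block. In both comparisons with WT, the blocked fit therefore compares the lines only within the numbers 7 and 8. It leaves too few libraries to decide whether calls hold when libraries are paired. Same-numbered libraries correlated at -0.332 to 0.421 in their deviations, and not every library correlated best with its own number. WT 5-6 was left out of that range. It correlated at 0.354 and -0.077 with the KO libraries 5 and 6, and at -0.045 and 0.132 with the KI libraries 5 and 6. Whether the numbers pair the libraries is not settled by these values. *Slit1*, *Slit2*, *Robo2* and *Epha5* had too few counts for the test.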
